A study of Mus musculus with 7 samples.

Results

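The urea cycle and ammonia handling were followed in mouse primary hepatocytes through 10 genes, *Cps1*, *Otc*, *Ass1*, *Asl*, *Arg1*, *Nags*, *Slc25a15*, *Slc25a13*, *Gls2* and *Glud1*. They were chosen by symbol, and all 10 were found among the 14819 entries of the read-count table. The libraries came from hepatocytes of male mice, 4 from wild-type controls (WT) and 3 from whole-body *Wdr6* knockouts (WDR6-WKO), in which CRISPR–Cas9 had removed exon 2 in every tissue. Both groups received no treatment, were isolated by collagenase perfusion and were cultured overnight before RNA extraction. The submitters describe the libraries of a group as separate experiments. The study's methods name C57BL/6J as its default strain and do not restate strain or age for the WDR6-WKO mice. The animals behind each library were not given in the sources used here, so the p-values measure the spread between these libraries.

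The urea cycle turns ammonia and bicarbonate into urea and runs in hepatocytes, mostly in those near the portal vein. In mitochondria, NAGS makes N-acetylglutamate, which switches on CPS1, the entry enzyme that makes carbamoyl phosphate, and OTC joins this to ornithine to give citrulline. In the cytosol, ASS1 and ASL add nitrogen from aspartate and release arginine, which ARG1 splits into urea and ornithine. The carrier ORNT1 (*Slc25a15*) exchanges citrulline for ornithine across the inner membrane, and citrin (*Slc25a13*) exports aspartate to the cytosol. GLS2 and GLUD1 release ammonia from glutamine and glutamate, and glutamine synthetase (*Glul*), found in hepatocytes near the central vein, captures what the cycle leaves.

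The libraries held 17816913 to 23668940 assigned reads, and expression is given as CPM, read counts relative to library size after TMM scaling by edgeR. *Wdr6* itself stood at 49.0, 40.6, 40.9 and 45.6 CPM in WT and at 2.58, 2.32 and 2.23 CPM in WDR6-WKO, which is the direction of the labels. WDR6-WKO replicate 3 stood apart, with a mean chi-square per gene of 14.3 and 16.0 against the other knockout libraries, which differed from each other by 5.14. *Alb*, which defines hepatocytes, averaged 7366 CPM in WT and 6479.9 CPM in WDR6-WKO, whereas the hepatocyte marker *Tat* was near the floor at 1.50 and 0.792 CPM.

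Arginase rose while the entry enzyme of the cycle and glutamate dehydrogenase fell. *Arg1* reached 171% of the WT level in WDR6-WKO, *Cps1* 62.0% and *Glud1* 68.1%. The other 7 genes did not pass the test. Thus 3 of the 10 genes had an adjusted p under 0.05, against 12.8% of the 14779 genes tested. By direction, 1 of 10 was higher (background 6.65%) and 2 were lower (background 6.18%). The study's own thresholds, 0.35 or more in absolute log2 fold change and an unadjusted p under 0.05, also took 3 of 10 (background 10.4%), and 4 of 10, with *Otc* as the fourth, had WT and WDR6-WKO ranges that did not overlap (background 23.5%). The median log2 fold change (WDR6-WKO over WT) was −0.04 over the 10 genes and 0.01 over all genes tested. Without WDR6-WKO replicate 3 the log2 fold changes of *Arg1*, *Cps1* and *Glud1* were 0.76, −0.76 and −0.57, and all passed. In bulk RNA, fewer cells of a type and less RNA per cell cannot be told apart.

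**Figure D1:**
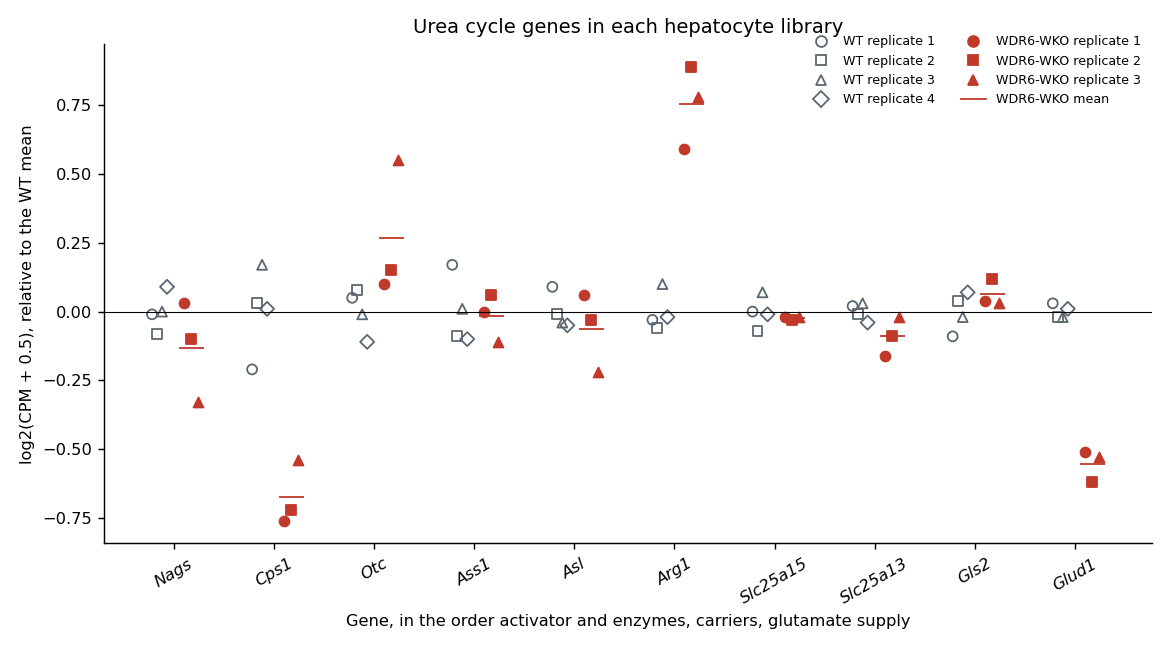
Level of each of the 10 genes in each library, as log2(CPM + 0.5) relative to the WT mean. Open markers are the 4 WT replicates, filled red markers the 3 WDR6-WKO replicates and short red lines the WDR6-WKO means. The 3 WDR6-WKO points lie below all 4 WT points for *Cps1* and *Glud1* and above them for *Arg1* and *Otc*, and the groups overlap for the other 6 genes.

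*Cps1* (GRCm38 chr1:67123026-67231259, plus strand, 38 exons in the principal transcript) was measured at 33.9, 40.0, 44.4 and 39.5 CPM in WT and at 22.9, 23.6 and 26.9 CPM in WDR6-WKO. Each knockout library lay below the lowest WT library, although the WT libraries themselves spread from 33.9 to 44.4 CPM. The means were 39.4 ± 4.30 (SD, n = 4) and 24.5 ± 2.11 CPM (SD, n = 3), a log2 fold change of −0.69 ± 0.09 (SE; edgeR quasi-likelihood test, adjusted p = 0.000114). An exact two-sided permutation test over the 35 arrangements of the genotype labels gave p = 0.0286, the smallest it can give. *Nags* (chr11:102145513-102149477, plus strand), whose product makes the activator of CPS1, stood at 15.1, 14.5, 15.3 and 16.2 CPM in WT and at 15.5, 14.2 and 12.1 CPM in WDR6-WKO. These groups overlapped, and the log2 fold change of −0.13 had a 95% interval of −0.34 to 0.08 (edgeR, adjusted p = 0.44). In *Nags*, 15.61% of the exon bases are also covered by *Gm11586*, so that part of its reads may be ambiguous.

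*Otc* (chrX:10252305-10321024, plus strand), the next mitochondrial step, was the least abundant of the 5 cycle enzymes. It stood at 7.01, 7.17, 6.70 and 6.23 CPM in WT and at 7.27, 7.56 and 10.2 CPM in WDR6-WKO. Replicates 1 and 2 of the knockout lay just above the highest WT library, and replicate 3 lay well above all the others. The log2 fold change was 0.29 with a 95% interval of 0.00 to 0.58 and did not pass the threshold (edgeR, adjusted p = 0.176). The exact permutation p was 0.0286, again the smallest possible. Without WDR6-WKO replicate 3 the log2 fold change was 0.13 (edgeR, adjusted p = 0.535). With 124 to 182 reads per library, counting error alone was 8.19% at the mean library, above the coefficient of variation of 6.15% seen among the WT libraries.

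The cytosolic enzymes split. *Ass1* (chr2:31470207-31520672, plus strand) was measured at 108, 90.4, 96.8 and 90.0 CPM in WT and at 96.0, 100.1 and 89.3 CPM in WDR6-WKO. *Asl* (chr5:130011258-130029247, minus strand) was measured at 65.9, 61.6, 60.4 and 59.9 CPM in WT and at 64.7, 60.7 and 53.2 CPM in WDR6-WKO. The groups overlapped for both genes. The log2 fold changes were −0.02 for *Ass1*, with a 95% interval of −0.16 to 0.13, and −0.06 for *Asl*, with an interval of −0.20 to 0.09 (edgeR, adjusted p = 0.897 and 0.646). *Ass1* shares 55.31% of its 50-base words with the copy *Gm5424*, so its reads could be divided between both entries. The sum of both was 137 ± 3.69 CPM in WT (SD, n = 4) and 138 ± 1.80 CPM in WDR6-WKO (SD, n = 3), with a log2 difference of 0.01.

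*Arg1* (chr10:24915221-24927484, minus strand), the last enzyme of the cycle, showed the largest rise of the 10 genes. Its WT libraries stood close together at 26.9, 26.3, 29.5 and 27.0 CPM, and the WDR6-WKO libraries stood at 41.6, 51.4 and 47.5 CPM. The lowest knockout library was thus well above the highest WT library. The means were 27.4 ± 1.39 (SD, n = 4) and 46.8 ± 4.94 CPM (SD, n = 3), with a log2 fold change of 0.77 ± 0.08 (SE; edgeR, adjusted p = 8.21e-06; exact permutation p = 0.0286). *Arg2*, the mitochondrial arginase, was scarce, at 1.58 ± 0.394 CPM in WT and 1.20 ± 0.701 CPM in WDR6-WKO. Its log2 fold change of −0.44 had an interval of −1.16 to 0.28 (edgeR, adjusted p = 0.426). Without WDR6-WKO replicate 1, 2 or 3 it was −0.20, −0.23 or −0.99 (edgeR, adjusted p = 0.803, 0.792 and 0.0245). Only 17 to 40 reads per library were counted for it. Annotated neighbours cover 28.08% of the *Arg2* exon bases.

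Neither mitochondrial carrier among the 10 genes passed the test. *Slc25a15* (chr8:22375551-22398597, minus strand) stood at 37.6, 35.8, 39.3 and 37.4 CPM in WT and at 36.9, 36.8 and 37.0 CPM in WDR6-WKO. Its knockout values fell inside the WT range, and its log2 fold change of −0.02 had a 95% interval of −0.15 to 0.11. *Slc25a13* (chr6:6041218-6217173, minus strand) stood at 116, 113, 116 and 110.3 CPM in WT and at 102, 107 and 112 CPM in WDR6-WKO. Its log2 fold change was −0.09 with an interval of −0.20 to 0.02 (edgeR, adjusted p = 0.271), and without WDR6-WKO replicate 3 it became −0.13 and passed (edgeR, adjusted p = 0.0476). *Slc25a12*, which encodes the related carrier aralar, averaged 37.5 ± 1.77 CPM in WT and 41.1 ± 1.84 CPM in WDR6-WKO, with a log2 fold change of 0.13 (edgeR, adjusted p = 0.192).

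*Glud1* (chr14:34310727-34345265, plus strand) had by far the deepest coverage of the 10 genes, with 18625 to 30506 reads per library. It stood at 1538, 1482, 1485 and 1512 CPM in WT and at 1059, 976 and 1040.2 CPM in WDR6-WKO. The gap between the groups was many times the spread within either. The means were 1504 ± 26.3 (SD, n = 4) and 1025 ± 43.3 CPM (SD, n = 3), with a log2 fold change of −0.55 ± 0.05 (SE; edgeR, adjusted p = 1.04e-06; exact permutation p = 0.0286). The processed copy *Glud-ps* held 100 to 143 reads per library and shares 8.17% of the 50-base words of *Glud1*. *Gls2* (chr10:128194457-128210004, plus strand), the liver glutaminase, stood at 18.1, 19.8, 18.9 and 20.2 CPM in WT and at 19.9, 21.0 and 19.7 CPM in WDR6-WKO. The groups overlapped, with a log2 fold change of 0.07 and an interval of −0.10 to 0.23 (edgeR, adjusted p = 0.639).

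The upstream sequences of the genes at either end of the level range differed in base composition. The 250 bases before the RefSeq start (GRCm38.p6, 5′ to 3′ on the gene's strand) are printed for *Otc*, the lowest of the 10 per length, and for *Glud1*, the highest, in lower case throughout because no searched motif was found in either. The *Otc* window is chrX:10252055-10252304 and the *Glud1* window is chr14:34310477-34310726, both on the plus strand.
Otc: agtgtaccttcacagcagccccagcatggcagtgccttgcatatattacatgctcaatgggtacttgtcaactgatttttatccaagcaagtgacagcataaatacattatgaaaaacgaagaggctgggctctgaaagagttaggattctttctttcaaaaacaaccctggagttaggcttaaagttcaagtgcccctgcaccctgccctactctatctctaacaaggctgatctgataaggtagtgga
Glud1: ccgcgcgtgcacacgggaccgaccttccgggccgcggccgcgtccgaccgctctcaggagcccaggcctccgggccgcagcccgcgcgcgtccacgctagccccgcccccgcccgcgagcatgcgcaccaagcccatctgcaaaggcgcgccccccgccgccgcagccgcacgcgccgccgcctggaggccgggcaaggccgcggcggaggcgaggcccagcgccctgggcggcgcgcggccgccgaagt
The *Otc* window held 43.6% G and C with 1 CpG and the *Glud1* window 82.0% with 46 CpG, against medians of 52.4% and 6 over 32841 RefSeq windows of the same length. Windows were matched for 6 of the 10 genes (*Otc*, *Ass1*, *Nags*, *Slc25a15*, *Slc25a13* and *Glud1*). Both strands were searched for TTGCNNAA (C/EBP), TGTTCT (a glucocorticoid receptor half-site), TGACGTCA (the cyclic AMP response element), CAAAGTCCA (HNF4), TGATGNAA (the ATF4–C/EBP composite) and TATAAA (the TATA box). No window of the 6 genes held any of these letters. Of all windows, 9.57%, 16.1%, 1.55%, 0.384%, 3.45% and 12.4% did, in that order. The absence of matches was not tested against these shares, and nothing is drawn from it. *Cps1* and *Arg1* were among the genes without a window.

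Levels per kilobase of each gene's principal coding transcript in GENCODE placed the 10 genes far apart. In WT, *Glud1* stood at 444 ± 7.75 CPM per kb, 7.81 times *Ass1* at 56.8 ± 5.10, followed by *Slc25a13* at 36.5 ± 0.84, *Asl* at 25.7 ± 1.13 and *Arg1* at 18.6 ± 0.941 CPM per kb (SD, n = 4). *Slc25a15* followed at 10.9 ± 0.422, *Nags* at 7.53 ± 0.358, *Gls2* at 7.49 ± 0.372, *Cps1* at 7.10 ± 0.773 and *Otc* at 2.92 ± 0.18 CPM per kb. Neighbours in this order had separate WT ranges, except *Nags* with *Gls2* and *Gls2* with *Cps1*. Percentiles among the 12831 genes given a length were taken from the mean over all 7 libraries of both genotypes. *Cps1* and *Otc*, the enzymes that make and use carbamoyl phosphate, stood only at percentiles 39.8 and 27.7, while *Glud1* stood at percentile 98.9. In WDR6-WKO, *Arg1* moved up to the fourth place at 31.7 ± 3.35 CPM per kb (SD, n = 3), where its range overlapped that of *Slc25a13*. *Cps1* at 4.40 ± 0.379 CPM per kb then overlapped *Otc* at 3.59 ± 0.687. These orders rest on one transcript length per gene, and the share of reads lost at exon junctions may differ between genes. The *Ass1* level leaves out the reads on its copy *Gm5424*, which averaged 40.7 CPM in WT and 42.6 CPM in WDR6-WKO.

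**Figure D2:**
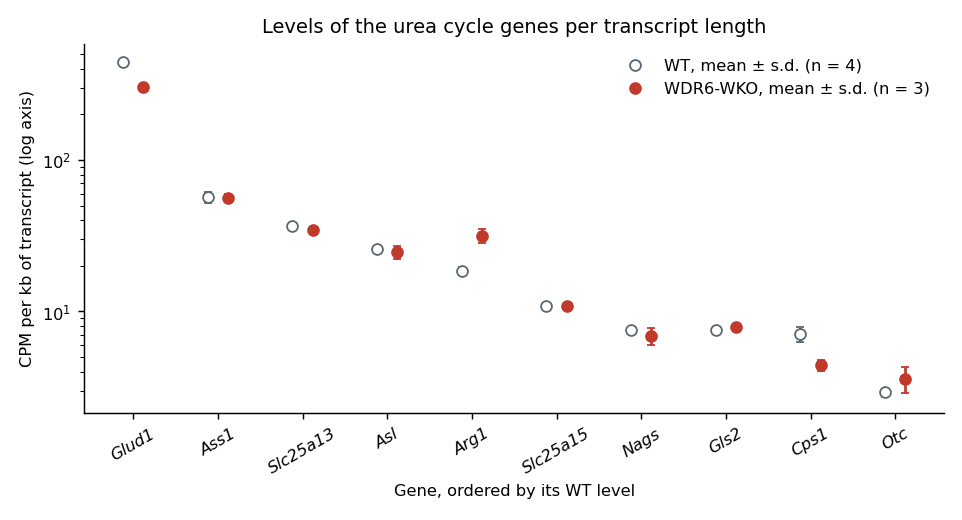
Level of each gene in CPM per kilobase of transcript on a log axis, ordered by WT level. Open points are WT means (n = 4) and red points WDR6-WKO means (n = 3), with bars of 1 SD. *Glud1* is highest in both genotypes, *Arg1* lies above *Asl* only in the WDR6-WKO means, and *Cps1* comes down towards *Otc* in WDR6-WKO.

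The 10 genes together took 0.195, 0.188, 0.189 and 0.190% of all assigned reads in WT and 0.149, 0.141 and 0.146% in WDR6-WKO. *Glud1* alone accounted for 0.149 ± 0.00287% in WT (SD, n = 4) and 0.104 ± 0.0048% in WDR6-WKO (SD, n = 3). Without *Glud1* the other 9 genes took 0.0415 ± 0.00114 and 0.0417 ± 0.000833%. The 5 cycle enzymes took 0.0230 ± 0.000936% in WT and 0.0237 ± 0.000902% in WDR6-WKO, so their summed share differed by less than 1 SD while *Cps1* and *Arg1* moved in opposite directions.

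Ratios of raw read counts within a library are free of the scaling. They were chosen after the values were seen and carry no test. There were 0.793, 0.658, 0.664 and 0.684 *Arg1* reads per *Cps1* read in WT and 1.81, 2.18 and 1.77 in WDR6-WKO. The ratio was thus higher in each knockout library than in any WT library. Raw counts are not corrected for transcript length, so a ratio of 1 has no special meaning. Per kilobase, *Arg1* stood above *Cps1* in both genotypes, at 18.6 and 7.10 CPM per kb in WT and 31.7 and 4.40 in WDR6-WKO. *Otc* reads per *Cps1* read were 0.207, 0.179, 0.151 and 0.158 in WT and 0.317, 0.321 and 0.378 in WDR6-WKO. *Ass1* reads per *Asl* read, leaving out those on *Gm5424*, stood at 1.65, 1.47, 1.60 and 1.50 in WT and at 1.48, 1.65 and 1.68 in WDR6-WKO. These groups overlapped. *Glud1* reads per *Glul* read were 6.71 ± 0.186 in WT (SD, n = 4) and 6.83 ± 0.541 in WDR6-WKO (SD, n = 3), a difference smaller than the knockout SD. *Gls2* reads per *Glul* read ranged from 0.0768 to 0.0903 in WT and were 0.131, 0.134 and 0.137 in WDR6-WKO.

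**Figure D3:**
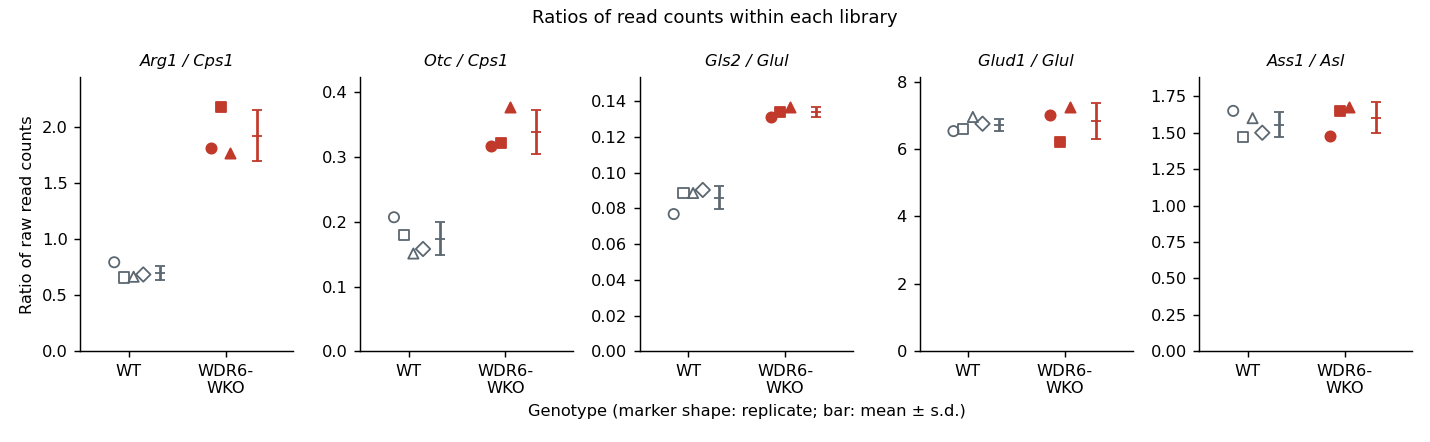
Ratios of raw read counts within each library, on linear axes that start at 0, with a marker for each library (shape: replicate) and bars for the mean ± SD of WT (n = 4) and WDR6-WKO (n = 3). The *Arg1* to *Cps1* ratio, not corrected for transcript length, lies at 0.793 or below in the 4 WT libraries and at 1.77 or above in the 3 WDR6-WKO libraries. The *Ass1* to *Asl* ratio overlaps.

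The enzymes linked to the cycle through glutamate, glutamine, proline, ornithine and aspartate moved in both directions. Of 18 listed, 17 were tested (*Car5a* was not analysed here), with a median log2 fold change of 0.03. Of these, 3 rose (background 6.65%), 3 fell (background 6.18%) and 11 did not pass. *Aldh18a1*, which makes the precursor of proline and ornithine from glutamate, rose most, from 33.8 ± 0.533 CPM in WT (SD, n = 4) to 71.9 ± 10.6 CPM in WDR6-WKO (SD, n = 3). Its log2 fold change was 1.09 ± 0.08 (SE; edgeR, adjusted p = 7.81e-07). *Oat*, which turns ornithine into glutamate semialdehyde, fell from 89.7 ± 1.15 to 72.2 ± 2.88 CPM (edgeR, adjusted p = 0.000989). *Oat* reads per *Aldh18a1* read were accordingly 2.65 ± 0.0216 in WT and 1.02 ± 0.124 in WDR6-WKO.

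*Glul* was measured at 236, 225, 214 and 224 CPM in WT and at 151, 157 and 143 CPM in WDR6-WKO, with no overlap. Its log2 fold change of −0.58 ± 0.05 (SE; edgeR, adjusted p = 2.37e-06) was close in size to that of *Glud1*. *Glul* shares 14.18% of its 50-base words with *Glns-ps1*. *Got1*, the cytosolic aspartate aminotransferase, rose from 122 ± 3.47 to 159 ± 8.09 CPM (edgeR, adjusted p = 0.000127). *Odc1*, which starts polyamine synthesis from ornithine, rose from 439 ± 10.6 to 527 ± 9.39 CPM (edgeR, adjusted p = 0.000743), with 42.2% of its 50-base words shared with *Gm7993*. *Gpt*, the alanine aminotransferase, fell from 18.2 ± 1.74 to 14.0 ± 2.40 CPM (edgeR, adjusted p = 0.0445), a call lost in 6 of 14 alternative settings.

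Among carriers of ornithine, arginine, glutamine, urea and related solutes, 13 of 16 listed were tested, with a median log2 fold change of −0.01. Of these, 3 rose (background 6.65%), 4 fell (background 6.18%) and 6 did not pass. *Slc25a2* and *Slc14a1* were not analysed here, and *Slc25a18* was under the filter on low counts. *Aqp9*, a channel for glycerol and urea, rose from 19.7 ± 1.77 to 28.0 ± 2.77 CPM (edgeR, adjusted p = 0.00177) and was the only carrier past the study's thresholds. *Slc38a2* and *Slc1a5*, which carry neutral amino acids, also rose, by 0.21 and 0.33 on the log2 scale (edgeR, adjusted p = 0.0286 and 0.0313). The glutamine transporter *Slc38a3* fell from 126 ± 2.56 to 100.2 ± 2.86 CPM (edgeR, adjusted p = 0.000351), and *Slc38a4* fell from 535 ± 14.1 to 432 ± 10.3 CPM (edgeR, adjusted p = 0.000233). The dicarboxylate carrier *Slc25a10* and the cationic amino acid transporter *Slc7a2* fell by 0.27 and 0.23 on the log2 scale (edgeR, adjusted p = 0.0152 and 0.025). The calls of *Aqp9*, *Slc38a3* and *Slc38a4* held in all 14 alternative settings. *Slc25a10* kept its call in 12 of 14, *Slc38a2* in 9, and *Slc1a5* and *Slc7a2* in 8 each. Calls among carriers numbered 3 without WT replicate 1, 3 without WT replicate 2 and 4 without WT replicate 4.

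The 12 genes for receptors, transcription factors and coactivators known to act on this pathway had a median log2 fold change of −0.10. Of these, 5 fell (background 6.18%), none rose (background 6.65%) and 7 did not pass. At an unadjusted p under 0.05 in edgeR the count was 6 of 12, against 4159 of the 14779 genes tested. *Gcgr*, the glucagon receptor, stood at 10.7, 10.4, 11.9 and 12.5 CPM in WT and at 8.64, 8.27 and 6.70 CPM in WDR6-WKO (log2 fold change −0.52; edgeR, adjusted p = 0.00852). Transcription factor genes *Cebpa*, *Hnf4a*, *Foxo1* and *Nr1h4* fell by 0.29, 0.27, 0.26 and 0.21 on the log2 scale (edgeR, adjusted p = 0.0186, 0.00502, 0.0419 and 0.0272). Scaling by library sizes alone left 3 calls among these 12 genes, and the study's thresholds left 1, *Gcgr*. The count was 2 without WT replicate 2 and 3 without WT replicate 1, 3 or 4 or WDR6-WKO replicate 1 or 2.

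**Figure D4:**
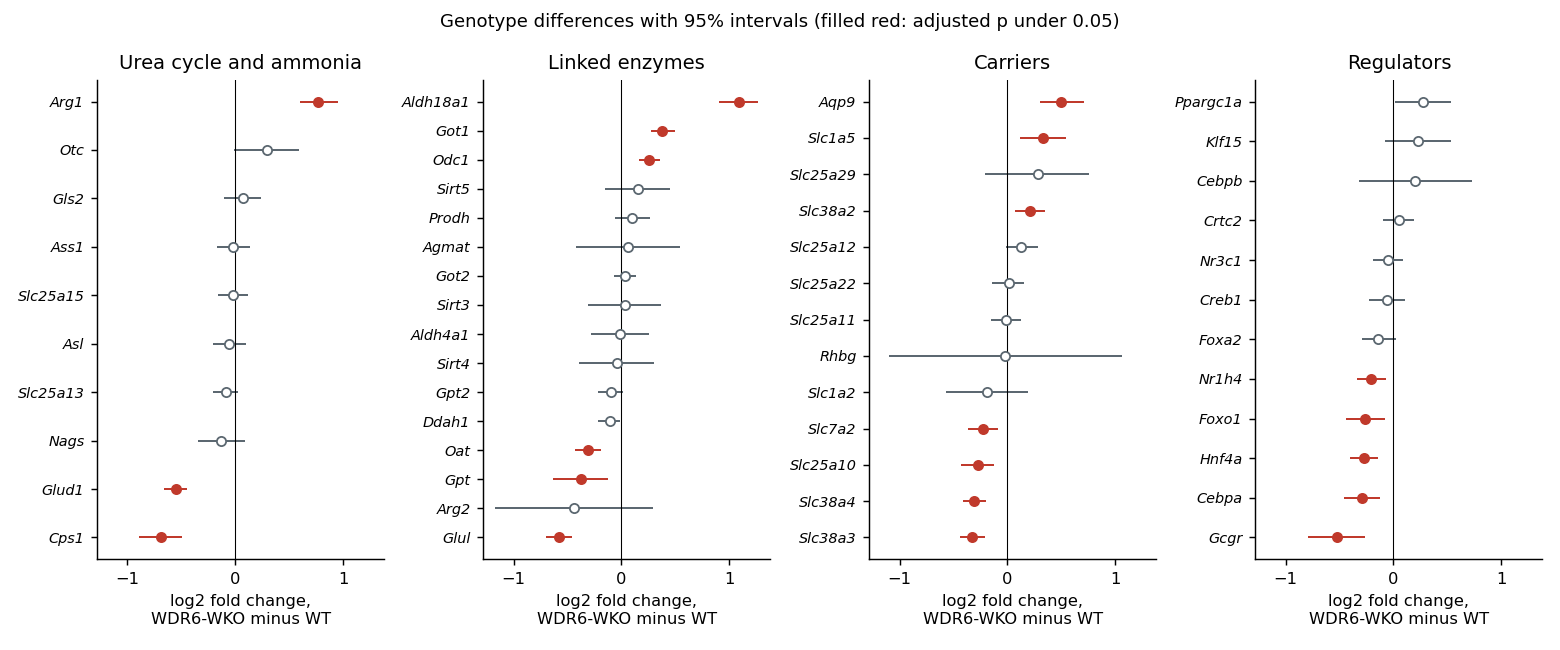
Log2 fold change (WDR6-WKO over WT) of the 10 genes and of tested linked enzymes, carriers and regulators, as points with 95% intervals from edgeR. Filled red points had an adjusted p under 0.05 and open points did not. *Arg1* at 0.77 and *Cps1* at −0.69 lie at the ends of the first panel, and no red point among the regulators lies above 0.

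Position in the lobule was read from marker genes that are not among the 10. Background shares over all genes tested were 6.65% higher and 6.18% lower. Of 10 periportal markers, 9 were tested, and 5 rose (*Cdh1*, *Cyp2f2*, *Aldh1b1*, *Ctsc* and *Etnppl*), 1 fell (*Pck1*) and 3 did not pass. Their summed level was 458 to 498 CPM in WT and 589.9 to 623 CPM in WDR6-WKO. *Cdh1* and *Ctsc* made up most of this sum in both genotypes, and they rose by 0.34 and 0.36 on the log2 scale. The periportal sum thus mainly follows these genes, and which cells their reads came from was not tested. Of 10 pericentral markers, 8 were tested, none rose and 6 fell (*Glul*, *Oat*, *Cyp2e1*, *Cyp1a2*, *Gulo* and *Tbx3*), with sums of 375 to 396 and 269 to 279 CPM. *Glul* and *Oat*, already counted among the linked enzymes, made up most of these sums. They averaged 224 and 89.7 CPM in WT and 150.5 and 72.2 CPM in WDR6-WKO. *Cps1* and *Arg1*, which belong to the periportal programme in liver, thus moved in opposite directions in libraries where most tested periportal markers rose. Several of these markers were scarce, among them *Pck1* at 1.47 and 0.427 CPM and *Etnppl* at 1.52 and 2.57 CPM. The fall of *Pck1* was the largest change among the periportal markers (log2 fold change −1.73; edgeR, adjusted p = 0.00925). It was called in all 13 alternative settings with a value for it, and the rise of *Etnppl* in 8 of 14.

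Markers of other liver cells were present in every library. Their counts below stand beside background shares of 6.65% higher and 6.18% lower over all genes tested. Of 15 Kupffer cell markers, 4 rose (*Lyz2*, *Fcgr1*, *C1qc* and *C1qb*), none fell, and none was at 0, with summed levels of 942 to 1050 CPM in WT and of 1218, 1295 and 1091 CPM in WDR6-WKO replicates 1 to 3. The defining markers *Clec4f* and *Adgre1* averaged 117 and 16.9 CPM in WT and 126 and 20.1 CPM in WDR6-WKO and did not pass. *Timd4*, also on the Kupffer cell list, went the other way, from 3.65 to 2.59 CPM. Its log2 fold change of −0.48 was the lowest of this list and did not pass either (edgeR, adjusted p = 0.088). Of 14 stellate and endothelial markers, 2 rose (*Acta2* and *Dcn*), none fell, and the sums were 775 to 844 and 814 to 863 CPM. Of 6 bile duct markers, 5 were tested and 2 rose (*Sox9* and *Spp1*), with sums of 3068 to 3360.4 and 3713 to 4306 CPM. *Spp1* made up most of these sums, averaging 2979.9 CPM in WT and 3693 CPM in WDR6-WKO, while *Sox9* averaged 82.9 and 95.2 CPM. *Krt19* averaged 148 and 143 CPM and *Krt7* 3.10 and 2.87 CPM, and neither passed. Of 9 hepatocyte markers tested, none rose and 2 fell (*Apoa1* and *Fgb*), with sums of 15485 to 18469 and 13923 to 16062 CPM. The part of other cell types and of lobular position in the changes of *Arg1*, *Cps1* and *Glud1* was not tested.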

How the data were processed

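Total RNA from primary hepatocytes was sequenced by the authors on an Illumina HiSeq, and reads were aligned to GRCm38 (mm10) with Bowtie2 2.2.3. The deposited values are whole-number read counts per gene symbol for 7 libraries, with no row total under 50. The counting tool, annotation and strand setting are not given in the sources used here. Bowtie 2 does not split reads over exon junctions, and whether another step did is not given, which could lower the counts of genes with many short exons.

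Counts were tested with edgeR 4.0.16 in R 4.3.3 (TMM scaling, filterByExpr, robust quasi-likelihood test, WDR6-WKO against WT with no covariate, Benjamini-Hochberg adjustment over 14779 genes). The biological coefficient of variation was 7.4%. Single genes were also compared by an exact two-sided permutation test of log2(CPM + 0.5). DESeq2 1.42.0, limma-voom 3.58.1, other scalings and filters, a replicate block and leaving out each library were alternatives. Same-numbered WT and WDR6-WKO libraries were not shown to be paired. Library pairs of one genotype differed by more than sampling noise, so each counted as 1 sample. Transcript lengths (principal coding transcript, the longest where several), shared 50-base words and overlaps were computed from GENCODE annotation of GRCm38, and upstream windows are RefSeq's. The code was tested on simulated data. The text names all 10 genes, *Wdr6*, each linked enzyme, carrier or regulator that passed the test, and a few partner genes whatever their p. The 10 genes and all lists were chosen with earlier results of these data known, so their counts and medians are descriptions. One gene named by this rule is not reported here.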

Additional observations from a re-analysis of the deposited data

How the results depend on the processing

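*Arg1*, *Cps1* and *Glud1* kept direction and call in all 14 alternative settings, with log2 fold changes of 0.70 to 0.85, −0.76 to −0.63 and −0.58 to −0.52. Calls among the 10 genes numbered 3 in every alternative but one, and 4 without WDR6-WKO replicate 3, where *Slc25a13* passed. *Otc* did not pass in any of the 14. Signs near 0 turned for *Ass1* (0.01 with library sizes alone, 0.04 without WT replicate 1, 0.02 without WDR6-WKO replicate 3, leave-one-out range −0.06 to 0.04), *Asl* (0.01 without WDR6-WKO replicate 3, range −0.12 to 0.01) and *Slc25a15* (0.00 with library sizes alone and without WT replicate 3, range −0.04 to 0.00). Leaving out 1 library moved calls over all genes between 1032 and 4233 (4233 without WDR6-WKO replicate 3, against 1897), calls among carriers between 3 and 7, and calls among regulators between 2 and 5. Under the study's thresholds 1 carrier and 1 regulator were called, and with library sizes alone 3 regulators. Library sizes alone split the calls into 1212 higher and 696 lower, against 983 and 914. Same-numbered libraries had correlated deviations of 0.0689, 0.0311 and 0.0566, so the numbers were not taken as pairs. The replicate block gave 1762 calls, 3 of the 10 genes and 5 carriers, *Slc7a2* and *Slc38a2* losing their call (edgeR, adjusted p = 0.0537 and 0.0543). Among the 10 genes, counting error at the mean library was largest for *Otc*, at 8.19%.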
